A study of Mus musculus with 6 samples.

Results

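Genes of retinoid synthesis, breakdown and reception were followed in sorted blood-forming cells of the mouse embryo, out of 47517 annotated gene symbols in the tables. The 9 genes are the retinal dehydrogenase genes Aldh1a1 and Aldh1a2, the retinoic acid hydroxylase genes Cyp26a1 and Cyp26b1, the cellular retinoic acid binding protein gene Crabp1, and the nuclear receptor genes Rara, Rarb, Rarg and Rxra. They were chosen by name, and their levels are TPM (transcripts per 1000000, a length-scaled transcript abundance within a library) summed over the annotated rows of a symbol. The cells came from C57BL/6 embryos with an Hlf-tdTomato knock-in at embryonic day 10.5, and were sorted as Hlf-tdTomato+c-Kit+CD45- out of either the embryo's caudal-half (the caudal region) or its yolk sac. Both tissues share the strain, the reporter allele, the sort and digestion with 0.125% collagenase for 1 h at 37 °C. There were 3 libraries per tissue, each made from a lysate of 100 cells, and no label states if different embryos or pools gave the replicates. All p-values here hence measure library spread, which may be technical. The comparison asks which genes differ between cells with this phenotype in the 2 tissues.

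The libraries were not alike in composition. Each had 15644 to 16975 genes at 1 TPM or more, and read depth is unknown because TPM does not keep it. The 10 marker genes of nascent blood cells (such as Runx1, Kit and Lmo2) summed to 565 to 810 TPM in the caudal libraries and to 620, 240 and 541 TPM in yolk sac replicates 1, 2 and 3, so the defining genes of the labelled cells were detected in all 6. The 16 marker genes of yolk sac endoderm, the absorptive epithelium of the yolk sac, summed to 23.4 to 32.0 TPM in the caudal region, where 5 of them were at 0 in all 3 libraries, and to 651, 11536 and 15.0 TPM in yolk sac replicates 1, 2 and 3. The 6 primitive erythroid markers summed to 1354 TPM in yolk sac replicate 2 and to at most 17.1 TPM elsewhere. Yolk sac replicate 2 stands apart. For Cyp26b1, Rarb, Rarg and Rxra the difference is given with and without it, while the means and the medians of the lists include it.

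Vitamin A circulates as retinol, which cells oxidise to retinal and then, irreversibly, to retinoic acid by retinal dehydrogenases such as Aldh1a2, the main embryonic enzyme. Retinoic acid binds heterodimers of a retinoic acid receptor (RAR) and a retinoid X receptor (RXR) that sit on direct repeats in DNA, and the Cyp26 enzymes hydroxylate it and so set where the signal can act. In the mouse embryo retinoic acid signalling is needed for the hemogenic endothelium that gives rise to blood stem cells.

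Cyp26a1 and Rarb are textbook targets of their own pathway, and their upstream sequences are shown because they carry the receptor's repeat, beside that of Cyp26b1, the one of the 9 with the largest difference between the tissues among those tested. The 250 bases before each RefSeq start (GRCm38.p6) were searched on both strands for the consensus half-site AGGTCA and for its variants. The first variant was AGTTCA. Next came GGGTCA, and the last one was GGTTCA. The windows were also searched for direct repeats of these with a spacer of 1, 2 or 5 bases (DR1, DR2 and DR5), whose half-sites are counted among the single ones too. All 9 genes had a RefSeq window, 15 in all. Only the windows of Cyp26a1 and Rarb held a DR5, against 0.0883% of the 32851 windows of all genes. No window of the 9 genes held a DR1 or a DR2, which 0.164% and 0.174% of all windows did. A half-site lay in 6 of the 15 windows, while 38.6% of all windows had one. Below, capitals mark half-sites, and letters run 5′ to 3′ on the gene's strand. The stretch of Cyp26a1 lies at chr19:37697558-37697797 (plus strand) and that of Cyp26b1 at chr6:84593909-84594060 (minus strand), both ending before the first annotated exon base. The stretch of Rarb, at chr14:16575507-16575535 (minus strand), is the repeat with 6 bases on each side, and it lies within an exon of a longer GENCODE transcript of Rarb.
Cyp26a1: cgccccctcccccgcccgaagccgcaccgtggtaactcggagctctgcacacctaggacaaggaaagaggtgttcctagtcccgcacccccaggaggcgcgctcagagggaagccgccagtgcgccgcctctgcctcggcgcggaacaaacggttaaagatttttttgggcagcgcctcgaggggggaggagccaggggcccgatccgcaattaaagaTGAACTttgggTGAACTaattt
Rarb: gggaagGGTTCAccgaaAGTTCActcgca
Cyp26b1: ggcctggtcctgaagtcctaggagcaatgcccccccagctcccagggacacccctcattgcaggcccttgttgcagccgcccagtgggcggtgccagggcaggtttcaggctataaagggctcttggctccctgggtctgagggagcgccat
The repeat runs from 32 to 16 bases before the RefSeq start of Cyp26a1, in the reverse direction, and from 53 to 37 bases before that of Rarb. No letters of the searched kinds were found in the window of Cyp26b1. These matches are descriptions of letters, and no binding was measured here.

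Among the 9 genes Cyp26b1, a breakdown gene, alone passed the test between tissues. Cyp26b1, on chromosome 6 (84571414 to 84593908, GRCm38), encodes a retinoic acid hydroxylase. It was at 24.3, 18.6 and 21.9 TPM in caudal replicates 1, 2 and 3, and at 3.22, 0.846 and 5.01 TPM in the yolk sac. All caudal libraries were thus above all yolk sac libraries, and the lowest value was that of yolk sac replicate 2. The means were 21.6 ± 2.85 TPM (SD, n = 3) and 3.02 ± 2.09 TPM (SD, n = 3). The difference was 2.64 (SE 0.41, 95% interval 1.70 to 3.58) on the log2(TPM + 1) scale, which is 6.24-fold, and it passed limma's test across all genes (adjusted p = 0.0478). By size this was the 14th largest difference toward the caudal region among 16436 tested genes. The exact two-sided permutation p was 0.1, the smallest that 3 against 3 libraries can give.

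Cyp26b1 rose in the caudal region as 1 of the 4 retinoid genes tested, and 0.347% of all tested genes did (0.0365% were higher in the yolk sac). Genes were tested at 1 TPM or more in at least 3 libraries, a level that Cyp26a1, Aldh1a1, Aldh1a2, Rxra and Crabp1 did not reach. The call lies close to the threshold. Without caudal replicate 1, 2 or 3 the adjusted p was 0.218, 0.114 and 0.172, and without yolk sac replicate 1 it was 0.112. Without yolk sac replicate 2 the difference was 2.16 (adjusted p = 0.0223), and without yolk sac replicate 3 it was 3.01 (adjusted p = 0.0392). With yolk sac replicate 3 as the sole yolk sac library, whose spread is then taken from the caudal region, the difference was 1.90 (adjusted p = 0.11). In all 17 alternative settings the difference stayed above 0, between 1.76 and 3.10, and it passed in 4 of them. As the tissues did not overlap, leaving out libraries or changing the pseudocount could not change the sign.

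**Figure D1:**
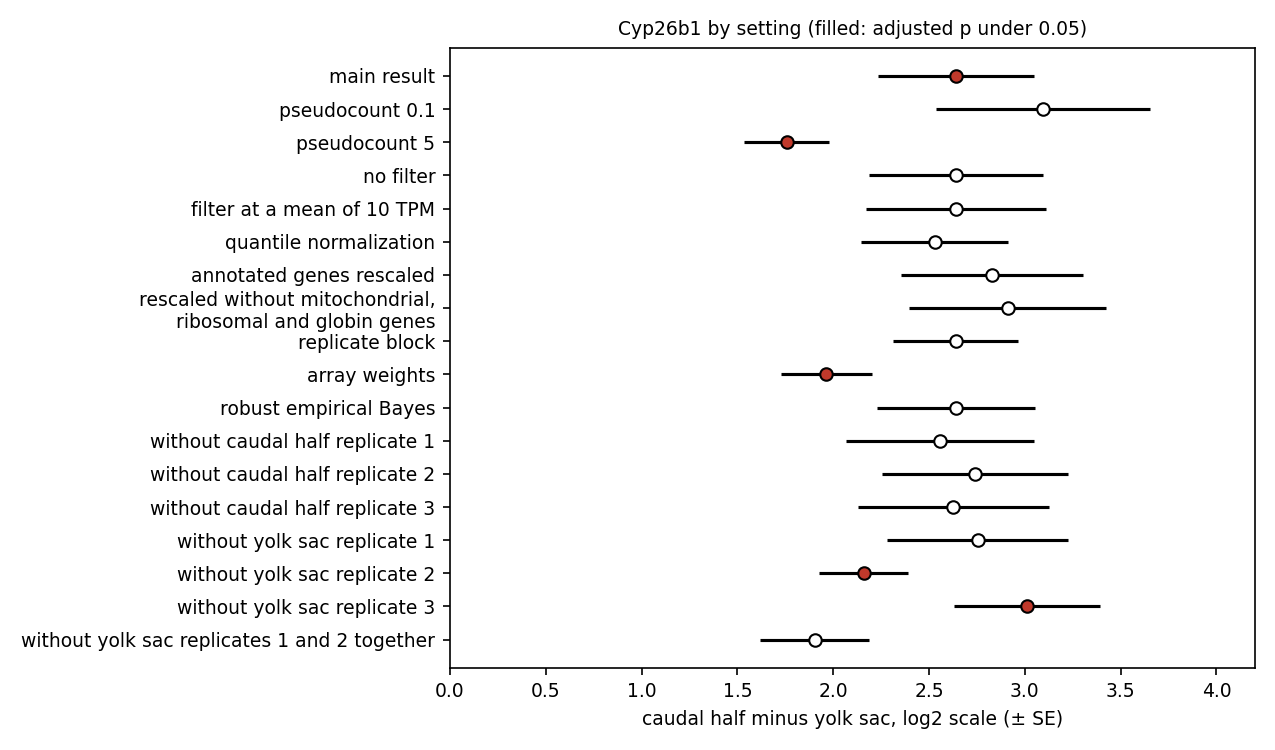
Difference of Cyp26b1 between caudal region and yolk sac (x axis, log2 scale, with bars of 1 SE) in the main result and under 17 other settings (y axis). Every value lies between 1.76 and 3.10, and filled points, the main result and 4 other settings, have a limma adjusted p under 0.05.

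Endothelial and smooth muscle transcripts moved with Cyp26b1. All 15 endothelial markers had positive differences, 13 did not overlap between tissues and 3 passed limma's test. Over all tested genes, 62.0% had positive differences, 11.5% were separated toward the caudal region and 0.347% passed in that direction. The endothelial sum was 520 to 693 TPM in the caudal region and 156 to 323 TPM in the yolk sac, lowest in yolk sac replicate 2. Cdh5 (97.6 ± 12.8 against 16.6 ± 5.43 TPM, SD, n = 3 each, adjusted p = 0.0114) passed, as did the transcription factor genes Sox7 (0.0192) and Sox18 (0.0482), named after their values were seen, while Tie1 (115 against 64.5 TPM, adjusted p = 0.438) and Egfl7 (114 against 54.3 TPM, adjusted p = 0.461) did not. The 14 mesenchyme and smooth muscle markers summed to 44.4 to 57.1 TPM in the caudal region and 6.29 to 8.15 TPM in the yolk sac. The smooth muscle genes Acta2, Myl9 and Tagln made up most of the caudal sum, and Dcn was at 0 in all 3 caudal libraries. Of the 5 tested genes of this list 4 had positive differences and 2 passed, both smooth muscle genes: Acta2 (32.8 against 1.60 TPM, difference 3.73, limma adjusted p = 0.00309), the largest difference toward the caudal region among all tested genes, and Myl9 (9.37 against 0.214 TPM, difference 3.04, adjusted p = 0.0114). Tagln, also of smooth muscle, was at 5.01 against 1.08 TPM (adjusted p = 0.09). Twist1, a mesenchymal transcription factor gene named after its values were seen, had the negative difference, at 1.33 against 2.41 TPM. All 10 nascent blood markers had positive differences and 1 passed limma's test. This was Gfi1 (23.1 against 1.82 TPM, difference 3.12, adjusted p = 0.0114), named after its values were seen. The part of all these transcripts in the level of Cyp26b1 was not tested. In bulk libraries fewer cells of a type and less RNA per cell cannot be told apart. Mesothelium markers summed to 0.141 to 0.477 TPM in the caudal region and to 0.1 to 5.23 TPM in the yolk sac. The highest of these sums, in yolk sac replicate 2, was Krt19 alone. Macrophage markers summed to 6.00 to 9.17 TPM in the caudal region and 7.55 to 9.57 TPM in the yolk sac. Among neural markers Nes made up most of the sum (11.1 to 14.1 and 4.52 to 10.3 TPM), while Sox1 and Neurod1 were at 0 in all 6 libraries.

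Cyp26a1, the second hydroxylase gene, lies on chromosome 19 (37697798 to 37701536) and was low in every library. It was at 0.544, 0.616 and 0.245 TPM in the caudal region and at 0.0796, 0.145 and 0.0648 TPM in the yolk sac. The caudal values were again all above the yolk sac values, with means of 0.468 ± 0.197 and 0.0966 ± 0.0429 TPM (SD, n = 3 each). It was below the level tested, its log2(TPM + 1) difference was 0.41, and its exact permutation p was 0.1. Cyp26a1 and Cyp26b1 were the 2 of the 9 genes with no overlap between tissues, both higher in the caudal region. Of all 33730 genes above 0 in some library, 9.76% were separated in that direction, 3.17% in the other and 12.9% in either. Of the tested genes these shares were 11.5%, 4.14% and 15.6%. The third hydroxylase gene, Cyp26c1, named after its values were seen, was at 0.358 ± 0.101 TPM in the caudal region and 0.107 ± 0.0687 TPM in the yolk sac (SD, n = 3 each), also with no overlap. Cyp26b1 made up 96.8% to 98.9% of the summed TPM of Cyp26a1 and Cyp26b1 in 5 libraries and 85.3% in yolk sac replicate 2.

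**Figure D2:**
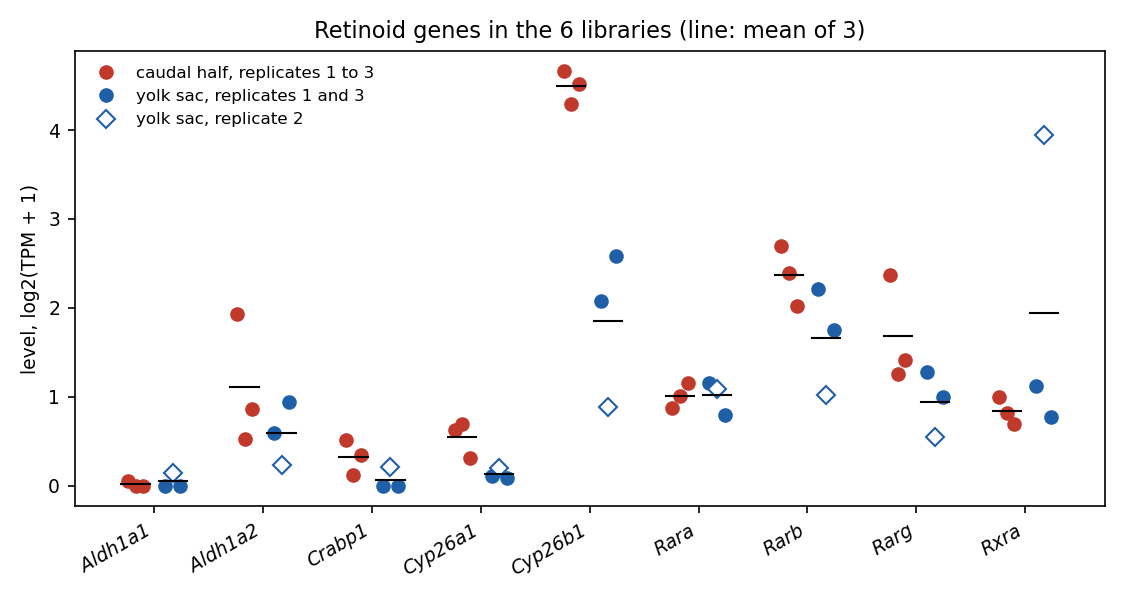
Level of each of the 9 retinoid genes as log2(TPM + 1) (y axis) in each library, with caudal region in red, yolk sac in blue, yolk sac replicate 2 as an open diamond and a line at each mean of 3 libraries. Cyp26b1 has the widest separation, and the open diamond of Rxra, at 14.4 TPM, stands far above the other libraries.

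Synthesis genes were weakly expressed and did not separate the tissues. Aldh1a2, on chromosome 9 (71215789 to 71296243), was at 2.81, 0.444 and 0.813 TPM in the caudal region and at 0.509, 0.177 and 0.917 TPM in the yolk sac. Caudal replicate 1 alone exceeded 1 TPM, and the other 5 libraries overlapped. The means were 1.36 ± 1.27 and 0.534 ± 0.371 TPM (SD, n = 3 each), with a log2(TPM + 1) difference of 0.52 and an exact permutation p of 0.5. Without caudal replicate 1 that difference was 0.11. Caudal replicate 1 also had the highest level of the mesenchyme gene Pdgfra (2.29 TPM, against 0.522 TPM or less elsewhere), a value looked up after those of Aldh1a2 were seen. Of the same marker list, Col1a1, Col3a1, Prrx1, Meox1 and Tcf21 were likewise highest in that library. Pdgfrb, Col1a2, Twist1, Acta2, Tagln, Myl9, Dcn and Lum were highest in other libraries, so the list as a whole did not follow Pdgfra. The part of mesenchyme transcripts in the level of Aldh1a2 was not tested.

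Aldh1a1, on chromosome 19 (20492715 to 20643465), encodes a retinal dehydrogenase whose activity is used to mark stem cells. It was listed at 0 in 4 libraries, at 0.0334 TPM in caudal replicate 1 and at 0.106 TPM in yolk sac replicate 2. Crabp1, on chromosome 9 (54764748 to 54773110), encodes a protein that holds retinoic acid in the cytoplasm. It was at 0.427, 0.0840 and 0.274 TPM in the caudal region, at 0.155 TPM in yolk sac replicate 2 and listed at 0 in the other yolk sac libraries. The 2 tissues overlapped in both genes, and their exact permutation p-values were 1.0 and 0.2. Summed over Aldh1a1 and Aldh1a2, the dehydrogenase transcripts were at 2.85, 0.444 and 0.813 TPM in the caudal region and 0.509, 0.283 and 0.917 TPM in the yolk sac, below the summed Cyp26a1 and Cyp26b1 of the same library in all 6.

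The RAR genes were at low levels in both tissues, and none passed the test. Rarb, on chromosome 14 (16430839 to 16819156), encodes the receptor whose gene carries the repeat shown above. It was at 5.48, 4.26 and 3.05 TPM in the caudal region and at 3.63, 1.03 and 2.37 TPM in the yolk sac. Caudal replicates 1 and 2 exceeded all yolk sac libraries, and replicate 3 did not. The means were 4.26 ± 1.22 and 2.34 ± 1.30 TPM (SD, n = 3 each), a log2(TPM + 1) difference of 0.71 with a 95% interval of -0.09 to 1.5 (limma adjusted p = 0.574). Without yolk sac replicate 2 it was 0.39 (adjusted p = 0.789). Exons of Rarb share 1793 of their 5265 bases with Top2b on the opposite strand, a gene at 26.4 to 42.6 TPM, and the use of strand is not given in the sources used here, so the level of Rarb is uncertain.

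Rarg, on chromosome 15 (102234938 to 102257517), encodes the receptor linked to self-renewal of adult blood stem cells. It was at 4.17, 1.38 and 1.67 TPM in the caudal region and at 1.43, 0.465 and 0.999 TPM in the yolk sac. Yolk sac replicate 1 lay just above caudal replicate 2, so the tissues overlapped. The means were 2.41 ± 1.54 and 0.964 ± 0.483 TPM (SD, n = 3 each), with a difference of 0.74 and an interval of -0.06 to 1.53 (limma adjusted p = 0.55). Without caudal replicate 1, the library with the highest level, the difference was 0.39, and without yolk sac replicate 2 it was 0.54.

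Rara, on chromosome 11 (98927818 to 98974942), encodes the receptor fused to Pml in promyelocytic leukemia. It was at 0.832, 1.02 and 1.23 TPM in the caudal region and at 1.23, 1.13 and 0.739 TPM in the yolk sac, 2 ranges that overlapped almost fully. The means were 1.03 ± 0.197 and 1.03 ± 0.258 TPM (SD, n = 3 each), and the interval of the difference was -0.49 to 0.49 on the log2 scale (limma adjusted p = 1.0). The sign of its difference, which was near 0, changed between scalings.

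Rarb was the most abundant RAR gene in 5 libraries, with 51.3% to 63.9% of the summed TPM of Rara, Rarb and Rarg. In yolk sac replicate 2 its share was 39.2%, below the 43.0% of Rara. The summed TPM of the 3 genes was 10.5, 6.66 and 5.95 in the caudal region and 6.28, 2.62 and 4.11 in the yolk sac, so caudal replicate 3 was below yolk sac replicate 1. These shares and sums rest on the level of Rarb, which is uncertain because of its overlap with Top2b.

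Rxra, on chromosome 2 (27676440 to 27762957), encodes a common partner of the RARs and was high in a single library. It was at 1.00, 0.765 and 0.611 TPM in the caudal region and at 1.17 TPM in yolk sac replicate 1 and 0.703 TPM in replicate 3, but at 14.4 TPM in yolk sac replicate 2. Apart from that library the tissues overlapped. The yolk sac mean of 5.43 ± 7.78 TPM (SD, n = 3) thus rests on replicate 2, and the log2(TPM + 1) difference of -1.11 (exact permutation p = 0.3) was -0.11 without it and 0.07 without yolk sac replicates 1 and 2 together. Rxrb, the second RXR gene, named after its values were seen, was at 21.03 ± 7.07 TPM in the caudal region and 16.1 ± 6.40 TPM in the yolk sac (SD, n = 3 each, limma adjusted p = 0.775). Rxra made up 3.0% to 4.91% of the summed TPM of Rxra and Rxrb in 5 libraries and 56.0% in yolk sac replicate 2, while Rxrg was at 0.00832 TPM in caudal replicate 1 and listed at 0 elsewhere.

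In yolk sac replicate 2 the high Rxra came with transcripts of endoderm and of retinol transport. In that library Afp (alpha-fetoprotein) reached 6114 TPM and Ttr, whose protein carries retinol binding protein in serum, reached 1481 TPM. Rbp4, the serum retinol binding protein gene, named after its values were seen, was at 1247 TPM in that library, at 69.7 TPM in yolk sac replicate 1 and at 0.472 TPM in replicate 3, against 0.568 TPM or less in the caudal region. Yolk sac replicate 1, with the second highest endoderm sum, had Rxra at 1.17 TPM. The part of endoderm and red cell transcripts in the level of Rxra was not tested.

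**Figure D3:**
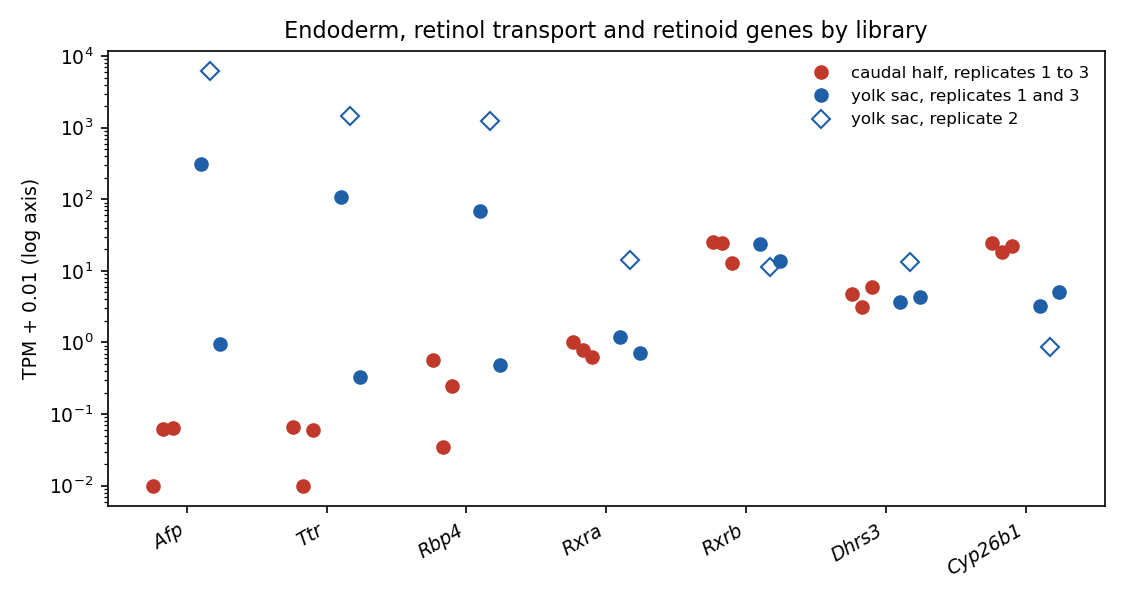
TPM (y axis, log scale, 0.01 added) of endoderm, retinol transport and retinoid genes in each library, with caudal region in red, yolk sac in blue and yolk sac replicate 2 as an open diamond. Afp, Ttr, Rbp4 and Rxra are highest in yolk sac replicate 2, at 6114, 1481, 1247 and 14.4 TPM, whereas Cyp26b1 is lowest there, at 0.846 TPM.

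Ordered by mean TPM, the caudal libraries had Cyp26b1 first, then Rarb, Rarg, Aldh1a2, Rara, Rxra, Cyp26a1, Crabp1 and Aldh1a1. Cyp26b1 exceeded Rarb in every caudal library without overlap of their ranges, and Crabp1 exceeded Aldh1a1 likewise. The other neighbours in this order overlapped. In the yolk sac the order by mean was Rxra (through replicate 2), Cyp26b1, Rarb, Rara, Rarg, Aldh1a2, Cyp26a1, Crabp1 and Aldh1a1, where Aldh1a2 exceeded Cyp26a1 without overlap and the other neighbours overlapped. The place of Rarb in both orders is as uncertain as its level. Cyp26b1 was above 91.6% of all 47517 gene symbols in the caudal region and above 74.3% in the yolk sac.

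Genes of the wider pathway, 88 in 6 lists, held none that passed the test in either direction among 48 tested with limma (background 0.383% in either direction). Their median difference was 0.11, against 0.09 over all tested genes. Of 15 genes of retinol uptake, transport and storage, 4 were tested, 2 with positive differences (median -0.43). The scavenger receptor gene Scarb1, which also takes up carotenoids, was at 32.5 ± 5.92 TPM in the caudal region and 61.7 ± 19.1 TPM in the yolk sac (SD, n = 3 each) with no overlap (limma adjusted p = 0.285). Lrp1, an endocytic receptor gene with low levels in the caudal region, was at 0.700 against 5.37 TPM (adjusted p = 0.23), also with no overlap. Dgat1, a retinol esterifying enzyme gene, was at 13.5 against 13.2 TPM (adjusted p = 0.988).

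Of 19 retinol and retinal oxidoreductase genes, 9 were tested and 3 had positive differences (median -0.06). Rdh10, the embryo's main retinol dehydrogenase gene, was at 7.37 to 7.49 TPM in the caudal region and at 7.57 to 7.88 TPM in the yolk sac, a difference of -0.05 with a 95% interval of -0.50 to 0.40 (limma adjusted p = 0.96). Rdh11 was at 9.04 against 15.8 TPM (adjusted p = 0.643), and Dhrs3, a retinal reductase gene, at 4.60 against 7.10 TPM (adjusted p = 0.825). Both were highest in yolk sac replicate 2, at 26.8 and 13.3 TPM. Rdh5 (9.34 against 7.69 TPM, adjusted p = 0.832) and Akr1b3 (45.0 against 50.0 TPM, adjusted p = 0.931) filled the list's named genes. Of 6 further dehydrogenase, hydroxylase and binding protein genes, Fabp5, which can deliver retinoic acid to other receptors (41.7 against 39.0 TPM, adjusted p = 0.913), and Por, the electron donor of cytochrome P450 enzymes (32.5 against 25.8 TPM, adjusted p = 0.727), were tested.

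Of 12 RXR and heterodimer partner genes, 8 were tested and 5 had positive differences (median 0.25). Nr4a1 (49.1 ± 7.46 against 22.7 ± 6.49 TPM, SD, n = 3 each, limma adjusted p = 0.155), Nr4a2 (4.52 against 2.57 TPM, adjusted p = 0.446) and Nr1h2 (16.4 against 11.3 TPM, adjusted p = 0.524) were higher in all caudal libraries than in any yolk sac library. Nr4a1 and Nr4a2 are also immediate early genes. Nr1h3, an oxysterol receptor gene, reached 6.25 TPM in yolk sac replicate 2 and at 1.20 TPM or less in the other libraries. The 15 coregulator genes, all tested, had 12 positive differences (median 0.09). Rere was at 13.8 against 7.96 TPM with no overlap (adjusted p = 0.582), Ncoa2 at 23.7 against 18.8 TPM (0.714), Tbl1xr1 at 8.35 against 6.12 TPM (0.699) and Ncor1, a corepressor of unliganded receptors, at 39.0 against 44.3 TPM (0.759).

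Of 21 textbook targets of retinoic acid, 10 were tested and all 10 had positive differences (median 0.76), although none passed. Of all tested genes 62.0% had positive differences. Differences were also positive for all 15 endothelial markers (median 1.07) and all 10 nascent blood markers (median 0.71), and the part of these cell type differences in the targets was not tested. Hoxa5 was at 3.28 ± 0.938 TPM in the caudal region and 0.800 ± 0.204 TPM in the yolk sac (SD, n = 3 each), with no overlap and a difference of 1.23 (limma adjusted p = 0.101). Tnfaip2 was at 8.82 against 3.86 TPM (difference 1.02, adjusted p = 0.183) and Rai14 at 23.1 against 13.5 TPM (0.73, adjusted p = 0.296), both with no overlap. Tgm2, the tissue transglutaminase gene, was at 40.4, 39.4 and 23.1 TPM in the caudal region and at 8.79, 26.8 and 6.25 TPM in the yolk sac (adjusted p = 0.367), so yolk sac replicate 2 lay above caudal replicate 3. Exons of Rai14, Tgm2 and Tnfaip2 overlap other genes on the opposite strand. The same holds for further genes named here, such as Ncor1, Tagln, Egfl7, Runx1 and Gfi1. Exons of Rdh5, Nr1h3 and also Egfl7 overlap other genes on the same strand. Stra8, a target in germ cells, was listed at 0 in all 6 libraries.

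**Figure D4:**
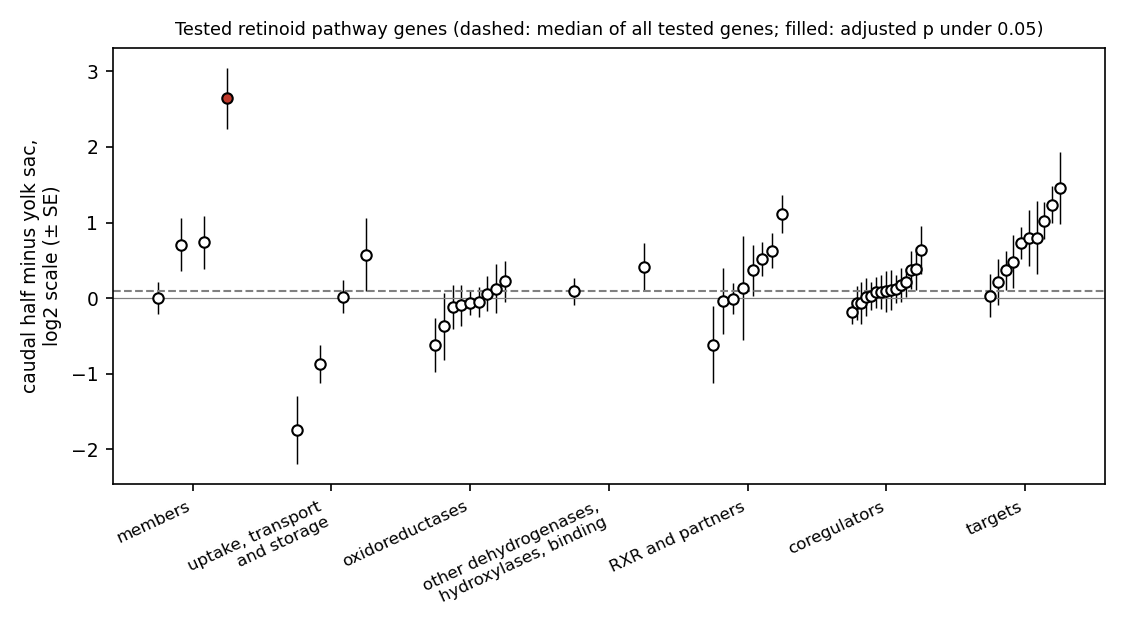
Differences between caudal region and yolk sac on the log2(TPM + 1) scale (y axis, bars of 1 SE) for each tested gene of the retinoid lists (x axis), with the median of all tested genes dashed. Cyp26b1, at 2.64, is the filled point that passed the test, and all 10 tested target genes lie above 0.

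The 5 genes whose log2(TPM + 1) values followed those of Cyp26b1 most closely over the 6 libraries were Ctbp2, Edn1, Marveld1, Gm43493 and Snord7, with Pearson correlations of 0.994 to 0.995 among 10871 genes compared. Over 6 libraries of 2 tissues such values describe these samples, and the genes share the libraries' differences in composition. Edn1, the endothelin gene of endothelial cells, was at 8.19 ± 1.73 TPM in the caudal region and 1.41 ± 0.816 TPM in the yolk sac (SD, n = 3 each, limma adjusted p = 0.0533). Ctbp2, a corepressor gene, was at 11.6 against 8.04 TPM (adjusted p = 0.505), and Marveld1 at 12.1 against 5.08 TPM (adjusted p = 0.168).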

How the data were processed

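Retinoid genes were measured by RNA sequencing of 6 libraries. Per the submitters' processing notes, HISAT2 did the alignment and StringTie the quantification, on mm10. The sources used here give no versions, annotation release or strandedness. The deposited column is TPM per the file headers, treated as a signal the authors scaled in each library, since assembled loci sum to 1000000 TPM and annotated genes add 555230 to 684549 TPM. Annotated genes alone were used (47643 IDs, 47224 of them in GENCODE M21), with 27 date-like symbols restored by ID.

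Tissues were compared in limma 3.58.1 (R 4.3.3) on log2(TPM + 1), with an empirical Bayes mean-variance trend and two-sided tests. Tested were the 16436 genes that reached 1 TPM in 3 or more libraries, with Benjamini-Hochberg adjustment over all of them and a threshold of 0.05. Fold changes on this scale understate those of weakly expressed genes. Single genes also had exact permutation tests over the 20 splits. On simulated data for caudal region against yolk sac, over 16436 genes, 98% of genes changed by 1.5 and 100% of those changed by 3 on the log2 scale were recovered. The changed genes were drawn from the better expressed ones, the simulated spread followed a smooth trend, and no library stood apart as yolk sac replicate 2 does. These shares therefore do not give the power in the real libraries, and a gene that did not pass may still differ by 1.5.

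All 9 retinoid genes are described. A gene that the rule below names is not reported here. Of each pathway list, the named genes are those that passed, otherwise up to 4 by smallest p, and genes at 5 TPM or more in a tissue with no overlap. Up to 3 genes by mean TPM were the rule for each cell type list (endoderm, endothelium, mesenchyme, mesothelium, neural, erythroid, macrophage, nascent blood), and the 5 best correlated genes at 5 TPM or more for a retinoid gene that passed. The members, lists, rules and alternatives were chosen with earlier results of these data known. Gene coordinates are from GENCODE M21 on GRCm38 and upstream sequences from RefSeq (GRCm38.p6). Alternatives changed the pseudocount (0.1, 5), the filter (none, a mean of 10 TPM), the scaling, the weights, the empirical Bayes fit, the replicate block and the libraries.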

Additional observations from a re-analysis of the deposited data

How the results depend on the processing

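The count of genes passing limma's test, 63 with all libraries, moved to 39 with a pseudocount of 5, to 8 when only genes with a mean of 10 TPM were tested and to 956 with array weights, whose highest values fell on caudal replicate 2 and yolk sac replicate 3 (weights 4.44 and 3.24). It was 0 with no filter on low values, where 2547 genes had an unadjusted p under 0.05 and genes at 0 in every library were left out. Leaving out 1 library gave 2 to 61 genes, the fewest without caudal replicate 3, and leaving out yolk sac replicates 1 and 2 together gave 13. With the replicate block, 0 genes passed by limma (1611 at an unadjusted p under 0.05) and Cyp26b1 had an adjusted p of 0.106. The labels do not state if same-numbered libraries are paired. Their deviations from the tissue mean had correlations between -0.021 and 0.019, but with 3 libraries per tissue such values cannot decide on pairing. The number of the 9 retinoid genes passing was 0 in place of 1 with a pseudocount of 0.1, with no filter, with the 10 TPM minimum, with quantile normalization, with both rescalings, with the replicate block, with robust empirical Bayes and without yolk sac replicates 1 and 2 together, and 0 to 1 when 1 library was left out. Without a filter more genes are adjusted for, and the SE of Cyp26b1 was 0.453 in place of 0.408. The cause was not tested in any of these settings. The number with no overlap between tissues, 2 with all libraries, was 4 with annotated genes rescaled. It was 3 when rescaled without mitochondrial, ribosomal and globin genes. Without 1 library it was 2 to 4, and without yolk sac replicates 1 and 2 together it was 6, where fewer values have to separate. The share of all genes that separated is given for the main setting only, so these other counts have no background to be read against. The number with no overlap was not computed for quantile normalization. Rara, at a difference of 0 to 2 decimals, changed sign to 0.0056 with a pseudocount of 0.1, to 0.0269 and 0.0204 with the rescalings, to 0.1228 with array weights and to 0.216 without yolk sac replicates 1 and 2 together, and lay between -0.1086 and 0.0698 when 1 library was left out. Rarb and Rarg kept positive differences in all 16 of their alternatives, with adjusted p of 0.111 to 0.955 and 0.383 to 1.0. Cyp26a1, Aldh1a1 and Crabp1 were below 1 TPM in every library, and with depth unknown the precision of such values cannot be given.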

Other observations

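Cyp26b1 was also set against other genes of the same library, a comparison chosen after the values were seen and given without a test. Relative to Kit, the stem cell factor receptor gene used in the sort, Cyp26b1 was at a TPM ratio of 0.153, 0.176 and 0.208 in caudal replicates 1, 2 and 3 and of 0.0351, 0.0200 and 0.0506 in the yolk sac replicates. Relative to Hlf, the reporter's gene, the ratios were 0.546, 0.566 and 0.812 against 0.183, 0.0946 and 0.289, and relative to Runx1, a master regulator of blood formation, they were 0.138, 0.149 and 0.192 against 0.0247, 0.0179 and 0.0533. None of these ratios overlapped between the tissues. Cyp26b1 itself differed more between the tissues than Kit, Hlf or Runx1, so these ratios restate its difference and add no support. Relative to Cdh5, the VE-cadherin gene of endothelium, the ratios were 0.216, 0.204 and 0.246 against 0.154, 0.0806 and 0.271, so yolk sac replicate 3 was above every caudal library. Relative to Gfi1, a transcriptional repressor that silences endothelial genes as blood cells form, the ratios were 0.826, 0.865 and 1.19 in the caudal region and 1.44, 0.961 and 2.15 in the yolk sac, which also overlapped. A ratio within a library shows unequal change of the 2 genes and by itself does not say which of them changed. Cdh5 and Gfi1 had themselves passed limma's test, with differences of 2.53 and 3.12 (adjusted p = 0.0114 each), beside 2.64 for Cyp26b1.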
